A study of Caenorhabditis elegans with 2 samples.

Results

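Heterochronic genes set which larval stage a cell lineage of Caenorhabditis elegans carries out and when. The results below concern 10 of them, taken by name from the Ensembl WBcel235 annotation: lin-14, lin-28, lin-29, lin-41, lin-42, lin-46, hbl-1, daf-12, puf-9 and nhl-2. They are 10 of the 19973 protein-coding genes on the nuclear chromosomes, and 10 of the 2285 reproducible peaks had a summit from 5 kb upstream to 5 kb downstream of one of their bodies. The genes were chosen by their role and with the positions and signals of the reproducible peaks already known, so their counts and signals are descriptions, set beside the values of all genes or peaks with no test.

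The peaks come from chromatin immunoprecipitation with sequencing of eGFP-tagged NHR-77, a nuclear hormone receptor, in whole L1 larvae of mixed sex. All larvae were of strain OP353, which carries the mutation unc-119(tm4063) III and the tagged insertion wgIs353, and they formed 1 group of 2 biological replicates. The deposited lists used here, all on ce11, held 21272 peaks for replicate 1, 24201 for replicate 2, 13500 for the replicates pooled, and 2285 in the set that the authors kept by a threshold on the irreproducible discovery rate, called reproducible peaks below. These 2285 are the strongest 2285 of the pooled list. Signal is the authors' value for a peak and is used only to order peaks within a list. Read depth cannot be taken from peak lists and is unknown. The control that the peaks were called against was not analysed here. The larvae were taken whole, so binding in more cells and stronger binding per cell cannot be told apart.

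In the heterochronic pathway, regulators that specify early larval fates are switched off in turn by microRNAs, which lets later fates follow. LIN-14, LIN-28 and HBL-1 act early, LIN-41 and LIN-42 restrain the passage to adult fates, and LIN-29 brings about the larval-to-adult switch of the skin. DAF-12 ties this sequence to steroid hormones, and RNA-binding proteins such as PUF-9 and NHL-2 take part in the repression of target messages. The first larval stage, sampled here, lies at the start of the sequence, when LIN-14 is abundant.

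The timing genes split into 7 with and 3 without a reproducible peak nearby. Summits within 5 kb of the gene body were found for lin-14, lin-28, lin-41, hbl-1, daf-12, puf-9 and nhl-2, and for none of lin-29, lin-42 and lin-46. Over all protein-coding genes, 26.1% had such a summit. This share was not matched for length: the windows of the 10 genes ran from 11876 bp (lin-46) to 40968 bp (daf-12), and longer windows can catch more summits. The promoter window reached from 1000 bp before to 250 bp after each annotated 5′ end of a gene, and 5 of the 10 genes had a summit there: lin-14, lin-28, hbl-1, puf-9 and nhl-2. The share over all protein-coding genes was 9.21%. In a narrow window of 500 bp upstream to 100 bp downstream, lin-14, lin-28 and puf-9 remained, against 7.39% of all genes. In a wide window of 2000 to 500 bp, lin-41 joined the 5, against 12.1% of all genes. When each summit counted only for the nearest annotated 5′ end of any gene, 1 of the 10 genes (lin-28) was left, against 5.58% of all protein-coding genes, since ncRNA starts lay nearer to the other 4 promoter summits. Counting only for the nearest protein-coding 5′ end left lin-14, lin-28, hbl-1 and puf-9, against 6.74%.

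**Figure D1:**
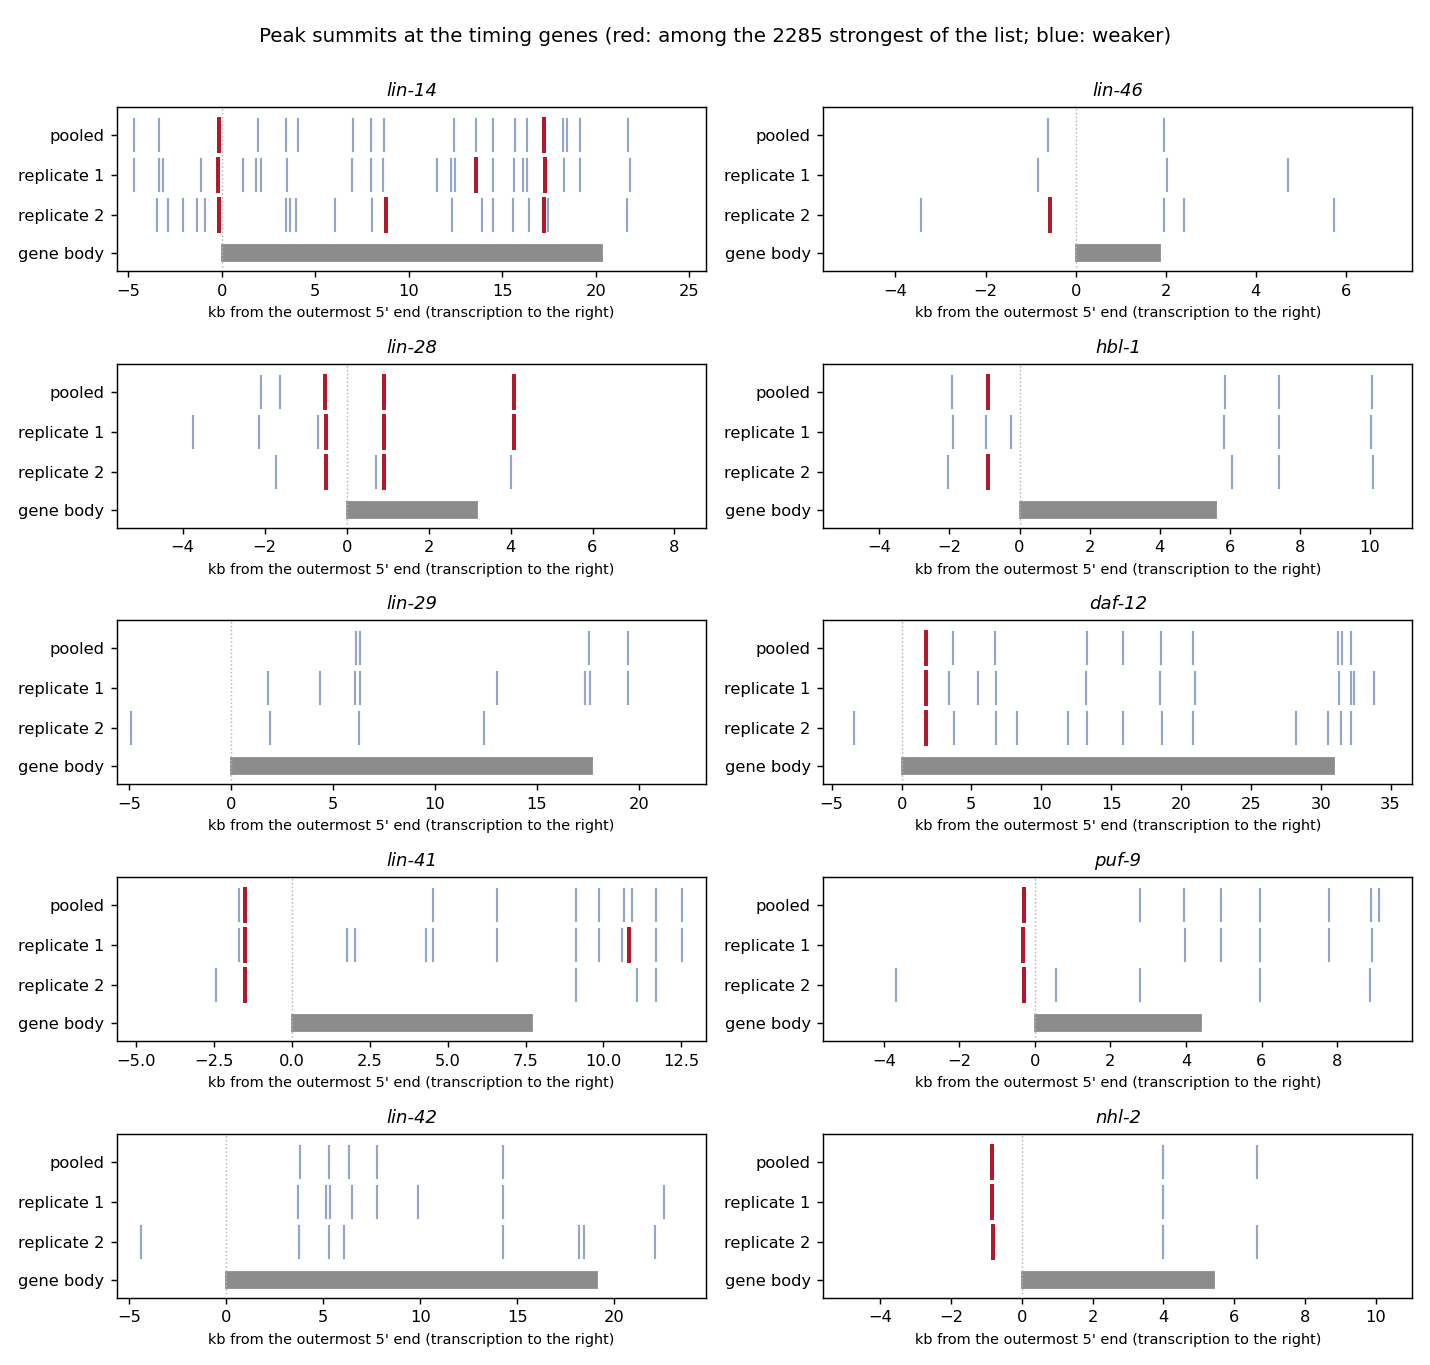
Summits within 5 kb of each timing gene, drawn from the outermost annotated 5′ end (x axis, kb, transcription to the right), with a row each for the pooled, replicate 1 and replicate 2 lists and a grey bar for the gene body. Red marks are among the 2285 strongest peaks of their list and blue marks are weaker. In the pooled row, lin-28 has 3 red marks, lin-14 has 2, and lin-29, lin-42 and lin-46 have none.

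The strongest member peak lay at puf-9 (WBGene00004245, chrX:5841592-5845987, plus strand), which encodes a Pumilio-family RNA-binding protein. Its peak at chrX:5841167-5841436 (ce11) had a signal of 619 and ranked 6 of the 2285 reproducible peaks. It had a signal of 333 in replicate 1, where it ranked 6 of 21272, and 282 in replicate 2, where it ranked 7 of 24201. The replicates thus placed it at nearly the same rank, with summits 7 bp apart. The summit lay 298 bp upstream of the puf-9 start. It also fell in the exon of W06B11.7 (WBGene00196810), a 181-bp ncRNA gene on the opposite strand, 56 bp past its start, so the nearest annotated 5′ end was not that of puf-9.

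At nhl-2 (WBGene00003598, chrIII:4893658-4899085, minus strand), which encodes a TRIM-NHL protein that acts with the microRNA silencing complex, the peak at chrIII:4899807-4900027 had a signal of 509 and ranked 14. It had a signal of 287 in replicate 1 and 222 in replicate 2, ranking 13 and 20, and the summits were 4 bp apart. The summit stood between divergent genes, 826 bp upstream of nhl-2 and 597 bp upstream of tag-340 (WBGene00017826), in the exon of the 149-bp ncRNA gene F26F4.14 (WBGene00198575), 39 bp past its start. Both of these top peaks were narrower (270 and 221 bp) than the usual 380 bp, a width that 2161 of all 2285 peaks had. All 25 of the strongest reproducible peaks were narrower than 380 bp.

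The sequences of both strongest sites, 201 bases centred on the summit, show what the receptor's best-ranked member sites look like. They are given from the RefSeq ce11 (WBcel235) plus strand, with capitals for GAGAGA or its complement.
puf-9 peak (chrX:5841194-5841394): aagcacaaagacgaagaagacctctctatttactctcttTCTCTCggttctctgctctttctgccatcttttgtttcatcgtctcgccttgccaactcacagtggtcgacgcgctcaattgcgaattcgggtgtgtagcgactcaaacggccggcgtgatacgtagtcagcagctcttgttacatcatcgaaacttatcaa
nhl-2 peak (chrIII:4899811-4900011): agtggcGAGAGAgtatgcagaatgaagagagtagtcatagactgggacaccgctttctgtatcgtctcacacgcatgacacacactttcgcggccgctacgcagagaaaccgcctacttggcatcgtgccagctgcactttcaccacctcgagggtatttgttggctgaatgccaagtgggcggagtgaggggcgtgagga
Each site held a single GAGAGA match away from the summit, starting 61 bases before it at puf-9 and 94 bases before it at nhl-2.

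lin-14 (WBGene00003003, chrX:11465560-11485871, plus strand), which encodes a nuclear protein that specifies early larval fates and is repressed by the microRNA lin-4, carried a promoter peak and an intronic peak. The promoter peak at chrX:11465215-11465594 had a signal of 119 and ranked 739. It had a signal of 82.2 in replicate 1 and 41.6 in replicate 2, at ranks 485 and 1138, so it stood lower in the order of replicate 2. Its summit lay 155 bp upstream of the outer lin-14 start and 100 bp upstream of T25C12.8 (WBGene00199908), a 182-bp ncRNA gene that runs the other way.

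The intronic lin-14 peak at chrX:11482627-11483006 was the stronger of the pair, with a signal of 143 and rank 506. Its ranks in replicates 1 and 2 were 541 (signal 78.2) and 514 (signal 64.6), close to each other. The summit lay in a 482-bp intron, number 6 of 11 in the long transcript and 4 of 9 in the short one. That is 17257 bp past the outer start and 2456 bp past the internal start of the short transcript. The nearest annotated 5′ end of any gene was that of the snoRNA gene T25C12.11 (WBGene00220093), with the summit 1676 bp upstream of it.

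The lin-14 sites are shown because a hexamer that nuclear receptors can bind was found at one of them and repeated GA tracts at the other. Capitals mark AGTTCA at the promoter and GAGAGA, or its complement, in the intron.
lin-14 promoter peak (chrX:11465305-11465505): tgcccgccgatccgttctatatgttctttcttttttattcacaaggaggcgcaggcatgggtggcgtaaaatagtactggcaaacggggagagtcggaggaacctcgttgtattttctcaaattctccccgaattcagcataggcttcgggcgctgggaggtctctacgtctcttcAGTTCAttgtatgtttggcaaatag
lin-14 intronic peak (chrX:11482717-11482917): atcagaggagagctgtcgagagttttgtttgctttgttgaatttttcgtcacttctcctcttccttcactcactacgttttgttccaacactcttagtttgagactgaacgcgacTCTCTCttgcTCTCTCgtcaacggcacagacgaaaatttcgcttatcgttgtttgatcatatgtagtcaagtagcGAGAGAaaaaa
The promoter site held AGTTCA at 76 bases past the summit. AGTTCA was present at 8.88% of all reproducible peaks and in 14.2% of windows of the same length just upstream of protein-coding genes. For GAGAGA these shares were 44.9% and 16.4%. The intronic site held 3 GAGAGA matches, starting 15, 25 and 90 bases past the summit.

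Weaker peaks were dense across lin-14 in the pooled list, which is relaxed and includes background. The pooled list placed 19 summits in its window of 30312 bp, which is 6.27 per 10 kb, against 1.46 per 10 kb over chromosome X and a median of 0.934 over the windows of protein-coding genes. A density this high or higher was found at 64 of 19973 protein-coding genes (0.320%). Of the 19 peaks, 17 were outside the reproducible set, with deposited −log10 q values from 0.0327 to 1.87, so many of them may be background. Of all 19, 12 were overlapped by a peak of both replicates. Each replicate had 3 peaks of the window among its 2285 strongest, and 2 of these were the reproducible peaks. The remaining one lay at different places, 13585 bp past the outer start in replicate 1 and 8782 bp past it in replicate 2. The first of these ranked 1821 in replicate 1, and the strongest overlapping peak of replicate 2 ranked 7456. The other ranked 1152 in replicate 2, and the strongest overlapping peak of replicate 1 ranked 3232. In the pooled list, their signals were 46.8 and 57.1.

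hbl-1 (WBGene00001824, chrX:5822142-5827755, plus strand) encodes a Hunchback-like zinc-finger factor of early larval fates and lies 13836 bp from puf-9 on the same strand. Its peak at chrX:5821049-5821428 was among the 3 weakest of the member peaks, with a signal of 69.8 and rank 1786. It ranked 3390 in replicate 1 (signal 25.4) and 1595 in replicate 2 (signal 34.3), so only replicate 2 had it among its 2285 strongest peaks. The replicate summits were 55 bp apart. The summit lay 903 bp upstream of hbl-1 and 795 bp past the start, and beyond the end, of the 104-bp ncRNA gene F13D11.8 (WBGene00196004).

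daf-12 (WBGene00000908, chrX:10635908-10666875, plus strand) encodes the nuclear receptor for the steroid hormones that license reproductive development, and it has 9 annotated 5′ ends. Its reproducible peak at chrX:10637462-10637841 had a signal of 140 and rank 534. It ranked 783 in replicate 1 (signal 65.3) and 399 in replicate 2 (signal 71.6), with summits 26 bp apart. The summit lay 1744 bp past the outermost start, inside the first intron (8353 bp) of the longest transcript, and in no promoter window of the gene. The other 9 pooled summits of daf-12 had signals no higher than 39.3.

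The hbl-1 and daf-12 sites are set side by side as an upstream site with GA repeats (capitals) and an intronic site with no match to any motif searched.
hbl-1 peak (chrX:5821139-5821339): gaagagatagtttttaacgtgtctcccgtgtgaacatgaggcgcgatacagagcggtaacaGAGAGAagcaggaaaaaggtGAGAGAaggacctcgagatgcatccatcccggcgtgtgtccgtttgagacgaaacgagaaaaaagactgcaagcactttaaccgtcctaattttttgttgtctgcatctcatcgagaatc
daf-12 intronic peak (chrX:10637552-10637752): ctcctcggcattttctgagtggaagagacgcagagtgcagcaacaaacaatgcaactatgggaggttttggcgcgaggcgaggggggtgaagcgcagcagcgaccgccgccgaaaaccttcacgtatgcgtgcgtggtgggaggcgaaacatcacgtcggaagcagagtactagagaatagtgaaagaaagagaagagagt
At hbl-1 the GAGAGA matches started 39 and 19 bases before the summit. The daf-12 site was richer in G and C, at 54.7%, than 201-base windows at the reproducible peaks in general (median 43.8%).

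lin-28 (WBGene00003014, chrI:8407630-8410804, minus strand), which encodes an RNA-binding protein that keeps the let-7 microRNA from maturing, had 3 reproducible peaks in its window, more than any other of the 10 genes. At least 3 were found at 271 of 19973 protein-coding genes (1.36%). The middle one, chrI:8409702-8410081, was the strongest, with a signal of 122 and rank 702. It ranked 1038 in replicate 1 (signal 55.5) and 593 in replicate 2 (signal 59.9), with summits 2 bp apart. The summit lay 28 bp past the start of the shorter transcript, in its 5′ UTR, which is inside the first intron of the longer transcript.

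The upstream lin-28 peak, chrI:8411131-8411510, lay 517 bp before the start of the longer transcript with a signal of 66.4 and rank 1932. It ranked 2238 in replicate 1 and 1881 in replicate 2, inside the 2285 strongest of both. The peak at the other end of the gene, chrI:8406528-8406907, had a signal of 69.3 and rank 1811. It ranked 1886 in replicate 1 and 3329 in replicate 2. Its summit lay beyond the 3′ end of lin-28, 110 bp upstream of F02E9.1 (WBGene00008528) and in the promoter window of F02E9.3 (WBGene00008529), so it is nearer to other starts than to those of lin-28.

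lin-41 (WBGene00003026, chrI:9334800-9342496, minus strand) encodes a TRIM-NHL RNA-binding protein and is a target of let-7. Its peak at chrI:9343802-9344181 was the strongest after those of puf-9 and nhl-2, with a signal of 165 and rank 365. It ranked 498 in replicate 1 (signal 80.9) and 261 in replicate 2 (signal 84.8), and the replicate summits fell on the same base. The summit was intergenic, 1496 bp upstream of the lin-41 start, which is outside the promoter window, and no other annotated 5′ end was nearer. Of 10 pooled summits in the window, 6 were overlapped by a peak of both replicates. An adjoining pooled peak 1695 bp upstream (signal 37.6) was overlapped by the same replicate peaks as the reproducible one, so these 6 are not all separate. The 9 pooled summits outside the reproducible set had signals of 44.6 or less.

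**Figure D2:**
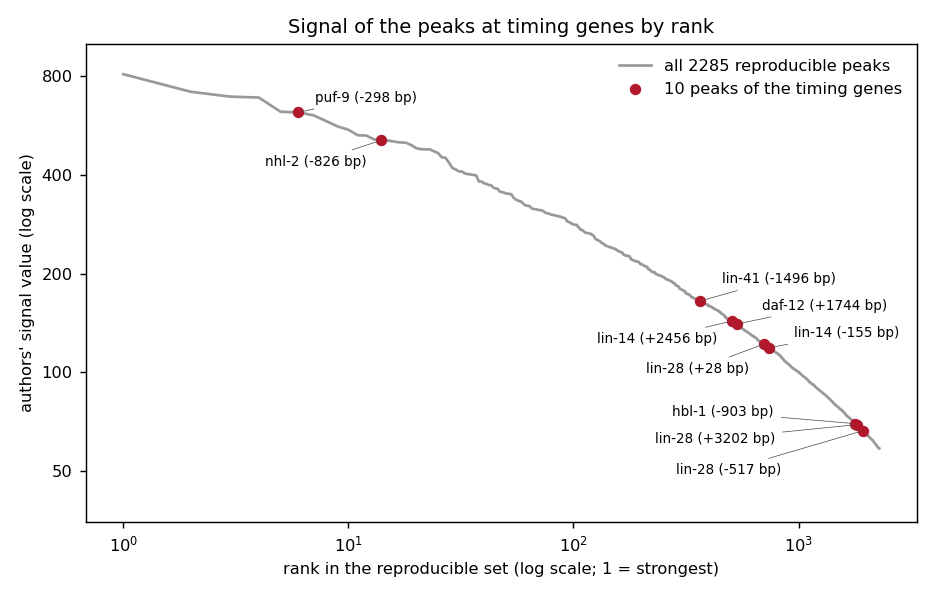
The authors' signal (y axis, log scale) against rank (x axis, log scale) for all 2285 reproducible peaks as a grey line, with the 10 peaks at timing genes as red points labelled by gene and by distance of the summit from the nearest 5′ end of that gene. The puf-9 and nhl-2 peaks stand at ranks 6 and 14, 5 peaks lie between ranks 365 and 739, and 3 lie between ranks 1786 and 1932.

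The 3 genes without a reproducible peak had weaker pooled peaks. At lin-46 (WBGene00003031, V, plus strand), which encodes a protein related to the scaffold protein gephyrin and acts downstream of lin-28, the best pooled peak had a signal of 52.3 and rank 2684 of 13500, just below the reproducible set, whose lowest signal was 58.7. Its summit lay 618 bp upstream of lin-46 and 255 bp upstream of R186.8. The replicates differed here: the peak ranked 1404 in replicate 2 (signal 37.0) and 6098 in replicate 1 (signal 18.6), and the replicate 1 summit lay 213 bp from the pooled one.

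lin-42 (WBGene00018572, II, minus strand), which encodes a relative of the circadian protein Period, had 5 pooled summits, the best with a signal of 50.3 and rank 2828. It lay 5309 bp past the outermost start, in the exon of the ncRNA gene F47F6.13, and ranked 2866 in replicate 1 and 6665 in replicate 2. lin-29 (WBGene00003015, II, minus strand), which encodes the zinc-finger factor of the larval-to-adult switch, had the weakest best peak of the 10 genes. That peak had a signal of 32.8 and rank 5901, lay 7 bp upstream of the neighbouring gene vps-15, and was overlapped by no peak of replicate 2. Inside lin-29, adjoining peaks 6313 and 6109 bp past the outermost start had signals of 30.6 and 28.4, and the first lay in the exon of the ncRNA gene Y17G7A.4. The strongest replicate peaks that overlapped them ranked 5663 in replicate 1 and 17671 in replicate 2.

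Around the threshold of the reproducible set, the members just inside were hbl-1 (signal 69.8) and the outer lin-28 peaks (69.3 and 66.4). Those just outside were intronic lin-14 peaks (57.1 and 54.1), the lin-46 peak (52.3) and the lin-42 peak (50.3).

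The replicates gave similar pictures of the 10 reproducible peaks. Every one was overlapped by a peak in both full replicate lists, as were 99.7% of all reproducible peaks. Among the 2285 strongest peaks of each replicate, 8 of the 10 were present in both, against 74.2% of all; the exceptions were hbl-1 in replicate 1 and the lin-28 peak beside F02E9.1 in replicate 2. The replicate summits of the 10 peaks were 0 to 84 bp apart (median 22.5 bp), and the median over 2279 reproducible peaks was 27.0 bp. The reproducible peaks are the strongest of the pooled list, and that list comes from these same replicates. These shares are therefore partly built in. With the 2285 strongest peaks of a single replicate, 4 of the 10 genes had a promoter summit in replicate 1 (9.17% of all genes) and 6 in replicate 2 (8.78%). hbl-1 and lin-46 made the difference, and lin-14, lin-28, puf-9 and nhl-2 were called in both.

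**Figure D3:**
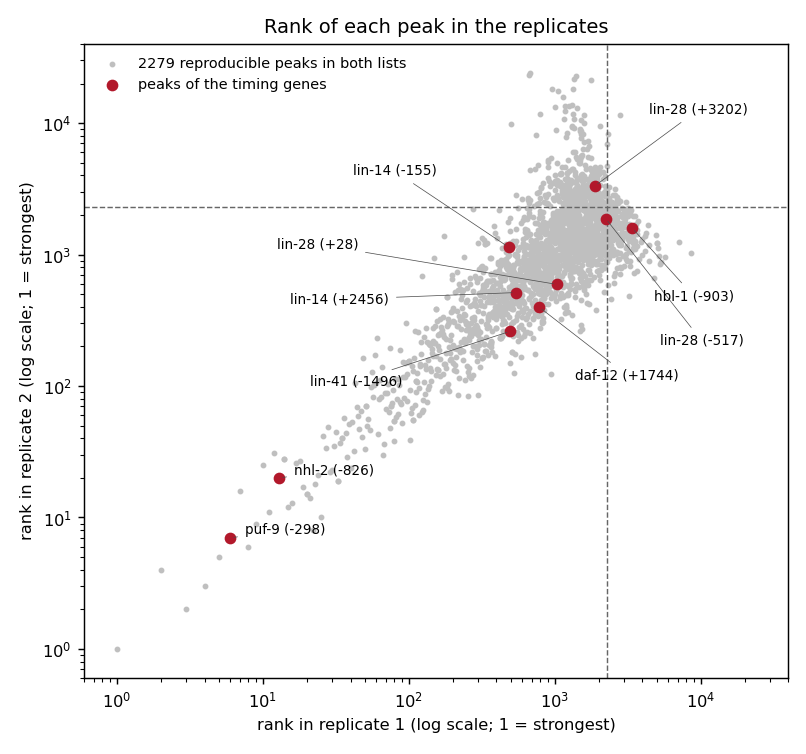
Rank of each of 2279 reproducible peaks in replicate 1 (x axis, log scale) and replicate 2 (y axis, log scale), grey, with the 10 peaks at timing genes in red, labelled by distance in bp from the nearest 5′ end of the gene. Dashed lines mark rank 2285. hbl-1 lies right of the vertical line (rank 3390 in replicate 1) and the lin-28 peak at +3202 above the horizontal one (rank 3329 in replicate 2).

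Weak peaks showed less agreement. The pooled list held 71 summits in the 10 windows, and 50 of them (70.4%) were overlapped by peaks of both replicates, against 63.7% of all pooled peaks. Adjoining pooled peaks could share the same replicate peaks, as at lin-41, daf-12, puf-9 and lin-29, so these are not all separate agreements. Below the reproducible set the members had 61 pooled peaks, of which 40 (65.6%) were in both replicates and 21 in only one, against 56.4% in both over all such peaks. The 71 summits came to 3.28 per 10 kb of window, and the whole genome held 1.35 per 10 kb. lin-14, lin-41 (5.65 per 10 kb) and puf-9 (5.56) were the densest, and lin-29 (1.44), lin-46 (1.68) and lin-42 (1.72) the least dense. Most summits in the lin-41 and puf-9 windows lay beyond the 3′ end of the gene, where the nearest coding starts were those of cbl-1 and atat-2. Outside the reproducible set, −log10 q was at most 1.02 in the lin-41 window and 0.394 in the puf-9 window. The replicate lists gave 4.02 against 2.12 per 10 kb in replicate 1 and 3.47 against 2.41 in replicate 2.

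The 10 reproducible peaks were mixed in annotation. By annotated class of the summit, 5 were intergenic, 2 intronic, 2 in exons of ncRNA genes and 1 in a 5′ UTR, and none lay in a coding exon or a 3′ UTR. Over all reproducible peaks, 62.5% were intergenic, 18.0% intronic, 13.4% in exons without coding or UTR annotation, and 4.03% in 5′ UTRs. The nearest annotated 5′ end belonged to an ncRNA gene for 4 of the 10 (the lin-14 promoter, hbl-1, puf-9 and nhl-2), as it did for 19.7% of all. Chromosome X held 5 of the 10 peaks and 4 of the 10 genes, while 18.4% of all reproducible peaks lay there. A member peak lies on the chromosome of its gene, and the share of all protein-coding genes on X was not taken. The G and C content of the 201 bases around the summit was 33.3 to 55.2% (median 47.3%), beside a median of 43.8% for all reproducible peaks and 32.8% for windows of the same length just upstream of protein-coding genes.

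Motifs were searched on both strands within 100 bp of the summit. GAGAGA was found at 6 of the 10 peaks: the lin-14 intron, the lin-28 5′ UTR, lin-41, hbl-1, puf-9 and nhl-2. It was present at 44.9% of all reproducible peaks and in 16.4% of the upstream windows. Within 50 bp of the summit it was found at 2 of the 10, against 29.4% of all peaks. The matches at the lin-28 5′ UTR, lin-41, puf-9 and nhl-2 started 61 to 94 bases from the summit. AGTTCA, a hexamer that nuclear receptors can bind, was found only at the lin-14 promoter, against 8.88% of all peaks and 14.2% of upstream windows. AGGTCA, another such hexamer, was found at none of the 10, against 5.56% of all peaks and 5.98% of upstream windows, but within 150 bp of the summit it was found at 2 of them (the lin-28 5′ UTR and hbl-1), against 8.32% of all peaks. TGACATCA was likewise at none, against 0.613% and 0.761%.

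Beyond these 10 genes, 28 other genes of the pathway were listed, and 10 of them had a reproducible summit in a promoter and 16 within 5 kb, with let-7 and mir-84 among the 16. Over the 22 protein-coding genes of the list, the counts were 10 and 14, beside the 9.21% and 26.1% of all protein-coding genes given above. The 28 genes were also chosen with earlier results of these data known. Their counts are therefore descriptions, with no test and no matching for window length. None of the 5 microRNA genes had a promoter summit. In the wide window of 2000 to 500 bp, let-7 had one. No share over all microRNA genes was taken to set beside these counts. The annotated bodies of lin-4, mir-48, mir-84 and mir-241 are short, with windows of 10075 to 10098 bp including both 5 kb flanks. A promoter of a longer transcript would not be counted here. The single reproducible peak in the let-7 window (signal 123, rank 688) lay 1867 bp upstream of it and 115 bp upstream of C05G5.2, and the single one in the mir-84 window (signal 114, rank 806) lay 2287 bp upstream of it. No pooled summit lay within 5 kb of lin-4, mir-48 or mir-241.

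Of 8 genes for microRNA machinery and RNA turnover, 4 had a promoter summit. They were ain-1, a GW182-like partner of Argonaute (signal 264, rank 120, 976 bp upstream), cgh-1, a DEAD-box RNA helicase (146, rank 479, 784 bp upstream), the Argonaute gene alg-1 (80.3, rank 1439) and the exonuclease gene xrn-2 (70.9, rank 1749, 58 bp past the start). The alg-1 peak ranked 902 in replicate 1 and 5047 in replicate 2, and the xrn-2 peak ranked 2507 and 994, so each was among the 2285 strongest of 1 replicate. A stronger peak in the xrn-2 window (signal 501, rank 17) lay 1214 bp upstream of it, in the promoters of rpl-43 and Y48B6A.1. alg-2, ain-2, dcr-1 and pup-2 had no reproducible summit within 5 kb.

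Both relatives of clock genes among these other pathway genes had promoter summits, beside 9.21% of all protein-coding genes. lin-42, the relative of Period among the 10 timing genes, had no reproducible peak. The tim-1 peak (signal 322, rank 62) lay 280 bp upstream of this Timeless relative and 21 bp upstream of the snRNA gene sls-2.8, and it was shared with the promoter of Y75B8A.23. The casein kinase gene kin-20 had 4 reproducible peaks with signals of 80.5 to 131. The weakest, 604 bp upstream of an annotated start, was the one in a promoter window. For each of the 4, the nearest start was that of an ncRNA gene. The weakest summit lay 181 bp past the start of F46F2.10. That weakest peak ranked 997 in replicate 1 and 2675 in replicate 2, outside the 2285 strongest of the latter, whereas the tim-1 peak ranked 70 and 67.

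Of 13 other regulators of larval timing, lin-66, din-1, myrf-1 and myrf-2 had a promoter summit. din-1, which encodes a corepressor that works with DAF-12, had 7 reproducible peaks in its window of 28840 bp, with signals of 61.0 to 246. The strongest lay 2348 bp upstream of the nearest din-1 start, and 3 of the 7 were in its promoter windows. The nearest start to the strongest was that of the snoRNA gene ZK20.9, with the summit 732 bp past it. A peak with a signal of 196 lay 7 bp past the same start. The strongest promoter one (signal 164) lay 34 bp past the start of the ncRNA gene ZK20.8. The share of genes with as many peaks was not taken. The lin-66 peak (signal 165, rank 364) lay 371 bp upstream. myrf-1, a transcription factor of larval development, had 3 peaks, the best (signal 136) at 296 bp upstream. The summit of this best peak lay nearer to the ncRNA gene F59B10.7, 185 bp past its start. Its relative myrf-2 had a promoter peak 228 bp upstream of a start (signal 98.0) and a stronger peak (signal 122) in the promoter of nucb-1. dre-1, sea-2, mab-10 and daf-9 had reproducible summits within 5 kb only. Those of sea-2 (signals of 154 and 61.8) were intronic, and those of dre-1, mab-10 and daf-9 lay in the promoters of hpo-26, R166.2 and bca-1. nhr-23, nhr-25, blmp-1, lep-2 and lep-5 had none.

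**Figure D4:**
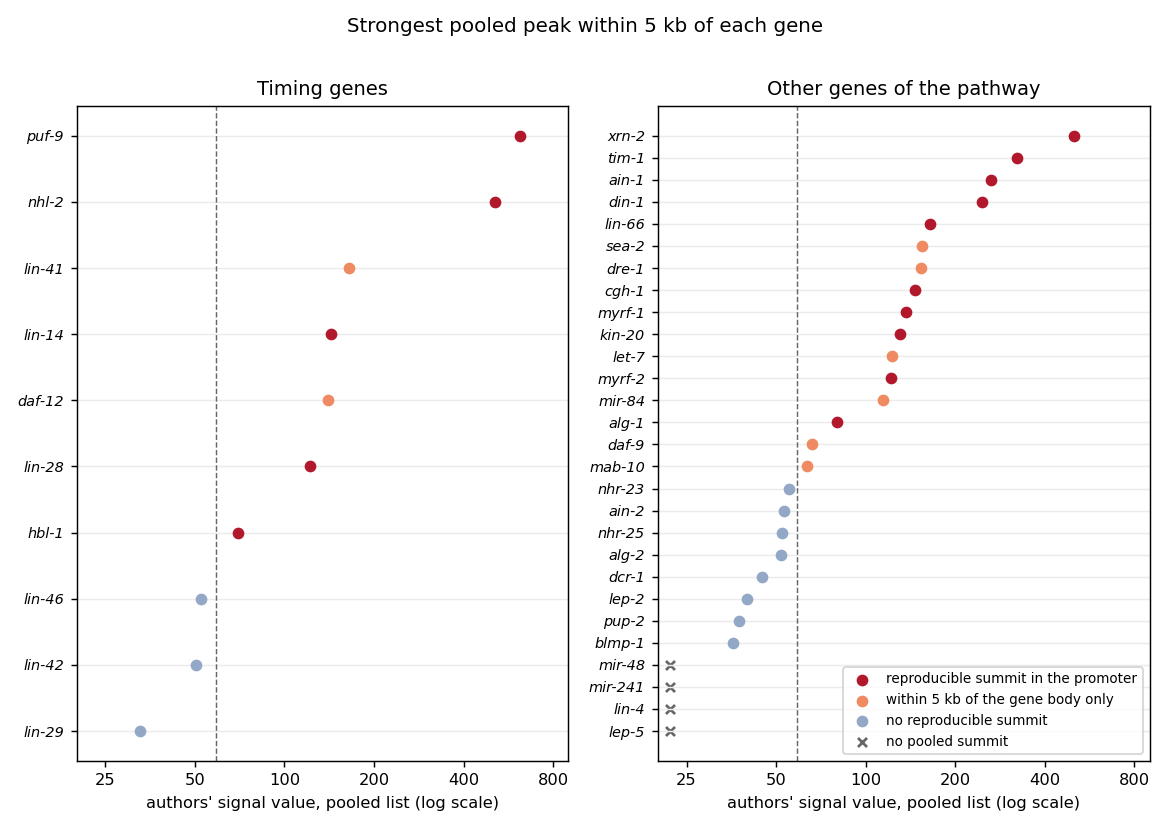
Signal of the strongest pooled peak within 5 kb of each gene (x axis, log scale), for the 10 timing genes on the left and the 28 other genes of the pathway on the right. Colours give each gene's call in the reproducible set, which may come from another peak than the one plotted, as for xrn-2; crosses mark genes with no pooled summit and the dashed line the lowest reproducible signal, 58.7. puf-9 (619), nhl-2 (509) and xrn-2 (501) stand highest.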

How the data were processed

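Per the deposited notes, the authors called peaks on ce11 alignments of each replicate and of both replicates pooled, against a control, as relaxed lists that include background, and derived the thresholded set from these lists. No source used here names the aligner, the caller or the thresholds. The deposited signal value of each peak has no stated scale and was used only for ranks within a list. The deposited −log10 q value was used to break ties and to describe pooled peaks outside the reproducible set. Lists on ce10 were not used here.

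Summits (start plus offset) were placed on the Ensembl release 115 annotation of the same build with Python 3.11.15, pandas 2.3.3 and pysam 0.24.0. All peaks lay within the chromosome lengths of the RefSeq WBcel235 sequence. Feature classes were taken in the order coding exon, 5′ UTR, 3′ UTR, other exon, intron, intergenic. Peaks counted as shared with at least 1 bp of overlap, and a peak's replicate signal and rank are those of the strongest replicate peak that overlaps it. let-7 was matched by its RefSeq symbol and span. As a check of the code only, the assignment was run on simulated summits placed with the same window limits. It recovered 200 of 200 inside promoter windows and called 0 just outside them, with only the gene's outermost start used for the latter.

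The members, the other pathway genes, the lists and the motifs were chosen with earlier results of these data known. Named genes are all members, pathway genes with a reproducible summit and the genes nearest to or sharing a member peak. Other pathway genes, the neighbours of pathway peaks and those of weaker peaks were named after their values were seen. Alternatives were other windows, start sets, peak subsets and overlaps, and single replicates.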

Additional observations from a re-analysis of the deposited data

How the results depend on the processing

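The 7 genes with a reproducible summit nearby were the same with 2 or 10 kb of flank in place of 5 kb. The share of all protein-coding genes was taken at 5 kb only (26.1%), so the counts at 2 and 10 kb have no share beside them. The count of members with a promoter summit moved from 5 to 3 in the narrow window, and to 1 (lin-28) when each summit was given only to the nearest annotated 5′ end of any gene. With the nearest protein-coding start, an alternative added after the data were seen, it was 4. For the other pathway genes the nearest start of any gene left 6 of 10. The share of all protein-coding genes fell too, from 9.21% to 5.58% with the nearest start of any gene and to 6.74% with the nearest protein-coding start. The puf-9 summit lay 56 bp from the nearest start of any gene and -298 bp from the nearest protein-coding start. Within 50 bp, GAGAGA fell from 6 to 2 peaks (29.4% of all peaks) and AGTTCA from 1 to 0 (4.90% of all). Within 150 bp, AGGTCA rose from 0 to 2 peaks (8.32% of all). Leaving out replicate 1 or 2 gave 6 or 4 members with a promoter summit and 8 or 6 with one within 5 kb. It gave 11 or 11 member peaks and 9 or 9 pathway genes with a promoter summit. Beside these, shares of all protein-coding genes were taken for promoter summits only (8.78% without replicate 1, 9.17% without replicate 2). The remaining alternatives left counts within 1.5 times. No paired analysis was possible because there is 1 group. The unknown depth limits what an absent peak means, at lin-29, lin-42 and lin-46 among others.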
